A study of Mus musculus with 2 samples.

Results

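The members described here are 6 mature miRNA names of the miR-181 family, among 1080 names on the array of which 10 belong to that family: mmu-miR-181a-5p, mmu-miR-181b-5p, mmu-miR-181c-5p, mmu-miR-181d-5p, mmu-miR-181a-1-3p and mmu-miR-181a-2-3p. They were chosen by these exact array names and are written without the mouse prefix from here on. RNA came from bone marrow cells of C57BL/6 mice, with no gene alteration named in the labels, that had been induced to become myeloid-derived suppressor cells, a population of immature myeloid cells known for inhibiting T-cell responses. Both cultures lasted 4 days, in medium with 5% serum, and held either GM-CSF at 40 ng/ml plus IL-6 at 40 ng/ml, or GM-CSF at 40 ng/ml only. GM-CSF is a growth factor for myeloid cells, and IL-6 is an inflammatory cytokine. Each culture had 1 single-colour Agilent miRNA array. No replicate check or p-value is possible with 1 array against 1 array, and the number of arrays limits the precision. The labels do not say how many animals gave marrow to each culture.

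A mature miRNA guides the silencing machinery to messenger RNAs that pair with its seed, the bases near its 5′ end. The miR-181 family is abundant in the mouse thymus and in early B cells. In mouse blood progenitors miR-181a promotes the B lineage, and in mouse thymocytes it raises sensitivity to antigen by lowering several phosphatases. In human mammary cells the factor STAT3, which acts downstream of the IL-6 receptor, has been reported to switch on the gene of miR-181b-1.

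The 6 mature sequences are shown because the 4 names of the 5p arm share their seed and differ only outside it, while the 3p names have other seeds. All 6 names matched the RefSeq miRNA table (GRCm38.p6). Sequences run 5′ to 3′ and capitals mark the seed, bases 2 to 8.
miR-181a-5p: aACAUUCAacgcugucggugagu
miR-181b-5p: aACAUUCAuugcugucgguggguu
miR-181c-5p: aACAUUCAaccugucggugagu
miR-181d-5p: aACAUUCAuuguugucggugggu
miR-181a-1-3p: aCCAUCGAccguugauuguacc
miR-181a-2-3p: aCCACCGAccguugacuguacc

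Of 1679 distinct mature names in that table, 4 held the seed ACAUUCA, and they were the 4 members of the 5p arm. The seed of miR-181a-1-3p was held by 2 names, the other being miR-181c-3p, and the seed of miR-181a-2-3p by that name alone. Counting positions from the 5′ end of the first-named miRNA, miR-181a-5p and miR-181b-5p differed by A9U, C10U and A21G, and miR-181b-5p was longer by a final base. Between miR-181b-5p and miR-181d-5p the alignment held the substitution C12U and the same extra final base, with 91.7% identity. Between miR-181a-5p and miR-181c-5p it held no substitution, and the base at position 11 of miR-181a-5p was missing from miR-181c-5p, with 95.7% identity. The least alike pair was miR-181c-5p and miR-181d-5p, at 78.3%. The 3p names differed from each other by U5C, which lies in the seed, and U16C. Probe sequences were not used here, so how far the probes of such near copies tell them apart was not tested. The 4 values of the 5p arm therefore cannot be taken as independent measurements.

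The family has 6 hairpin genes in 3 pairs of neighbours. Mir181a-1 and Mir181b-1 lie on chromosome 1 with 97 bases between them, Mir181a-2 and Mir181b-2 on chromosome 2 with 1019 bases between them, and Mir181c and Mir181d on chromosome 8 with 85 bases between them. The pair on chromosome 2 lies within the spans of Nr6a1, which encodes an orphan nuclear receptor, and of the long non-coding RNA gene Nr6a1os, and the other 4 genes overlap no other RefSeq gene. The hairpins of miR-181a are shown because they give the same 5p arm and different 3p arms. Capitals mark the mature arms. Mir181a-1 lies at chr1:137966455-137966541 and Mir181a-2 at chr2:38852735-38852810, both on the plus strand of GRCm38.p6.
Mir181a-1: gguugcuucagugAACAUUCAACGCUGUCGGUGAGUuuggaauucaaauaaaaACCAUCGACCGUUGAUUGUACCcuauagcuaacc
Mir181a-2: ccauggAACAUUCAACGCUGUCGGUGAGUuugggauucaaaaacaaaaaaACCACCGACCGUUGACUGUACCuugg
A signal on miR-181a-5p or miR-181b-5p can therefore come from either of 2 loci, whereas miR-181c-5p, miR-181d-5p and both 3p members each have 1 locus.

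The 4 members of the 5p arm were detected in both cultures and the 2 members of the 3p arm in neither. By the probe sums used here, no detected member differed by 2-fold or by 1.5-fold between the cultures. Over all 292 miRNAs detected on both arrays, 1.37% were at least 2-fold higher with GM-CSF plus IL-6 and 0% at least 2-fold lower, while 5.48% were at least 1.5-fold higher with GM-CSF plus IL-6 and 0% at least 1.5-fold lower. In the text below, the level of a miRNA is the sum of the deposited total signals of its probes, in intensity units, and each name had 40 spots per array. Ratios have GM-CSF plus IL-6 as numerator and GM-CSF only as denominator. They were taken after dividing each array by its 75th percentile over the 292 miRNAs (160 with GM-CSF plus IL-6 and 182 with GM-CSF only), and the median log2 ratio of those miRNAs, 0.12, was then subtracted. These relative log2 ratios had an interquartile range from -0.09 to 0.16 and a central 95% from -0.25 to 0.67 over all 292 miRNAs. Errors given with levels are the scanner software's own error estimates, and errors given with ratios are standard errors over replicate spots. Both cover measurement error within an array and not differences between cultures. Carried to the log2 scale, the software's errors exceeded the spot errors and the size of the relative log2 ratio for all 4 detected members. They were 0.23 for miR-181a-5p, 0.21 for miR-181b-5p, 0.52 for miR-181c-5p and 0.37 for miR-181d-5p.

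The level of miR-181a-5p, the member known for its role in early B cells and thymocytes, was 28.3 ± 3.25 with GM-CSF plus IL-6 and 31.3 ± 3.40 with GM-CSF only. Its relative log2 ratio was -0.08 ± 0.04. The relative log2 ratios of its 2 probes were -0.07 ± 0.04 for the brighter and -0.11 ± 0.08 for the dimmer. Of its 40 spots, 24 were well above background with GM-CSF plus IL-6 and 29 with GM-CSF only. Before scaling, the spots of its brighter probe ran from 44.2 to 63.3 with GM-CSF plus IL-6 and from 46.9 to 67.5 with GM-CSF only. These ranges overlapped, and 17 of 20 spots with GM-CSF plus IL-6 lay below the median spot with GM-CSF only. For the dimmer probe 16 of 20 did. Counted the same way, the brighter and dimmer probe gave 9 and 10 for miR-181b-5p, and 18 and 14 for miR-181c-5p. For miR-181d-5p they gave 10 and 16. These spot signals are not scaled between arrays, unlike the ratios, and replicate spots are not replicate cultures. Without scaling, the median log2 ratio of all 292 miRNAs was -0.06.

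The level of miR-181b-5p, whose human counterpart has been linked to STAT3, was 33.95 ± 3.46 with GM-CSF plus IL-6 and 34.2 ± 3.46 with GM-CSF only. Its relative log2 ratio was 0.05 ± 0.04, and its probes gave 0.06 ± 0.05 and 0.04 ± 0.07. It was the 1 detected member above the median of all miRNAs. That placement was reversed by quantile normalization, which gave -0.02. With 38 of 40 spots well above background with GM-CSF plus IL-6 and 40 of 40 with GM-CSF only, it was the member measured on the largest number of such spots.

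The level of miR-181c-5p was 8.68 ± 2.44 with GM-CSF plus IL-6 and 11.2 ± 2.49 with GM-CSF only. Its relative log2 ratio was -0.30 ± 0.08, rank 3 from the lowest of 292 and outside the central 95% of all miRNAs. Its brighter probe gave -0.29 ± 0.09 and its dimmer probe -0.32 ± 0.15. The dimmer probe was below its limit of 3 errors on both arrays. Its totals were 2.92 against 5.07 with GM-CSF plus IL-6 and 3.82 against 5.12 with GM-CSF only. The brighter probe passed narrowly with GM-CSF plus IL-6, at 5.76 against 5.29. The scanner software's errors, carried to the log2 scale, gave the ratio of miR-181c-5p an error of 0.52, larger than the ratio itself. The miRNA was dim: 0 of 40 spots were well above background with GM-CSF plus IL-6 and 6 of 40 with GM-CSF only. Its brighter probe had a median spot signal of 16.4 with GM-CSF plus IL-6 and 18.99 with GM-CSF only. The dimmer probe had a median spot signal of 8.02 with GM-CSF plus IL-6 and 9.53 with GM-CSF only. Both medians lay inside the central 95% of negative control spots, which ended at 11.4 and 10.6 in the same order. Single spots of that probe reached 20.8 with GM-CSF plus IL-6 and 17.3 with GM-CSF only.

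The negative control spots also stood slightly lower on the array with IL-6, with a median of 1.84 in the culture with IL-6 added and 2.41 in that without it, over 1000 spots each. After those medians were subtracted, miR-181c-5p had a level of 7.28 with GM-CSF plus IL-6 and 9.34 with GM-CSF only, and a relative log2 ratio of -0.31. Normexp background correction with an offset of 50, which by its construction shrinks the ratios of faint names, gave -0.026.

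**Figure D1:**
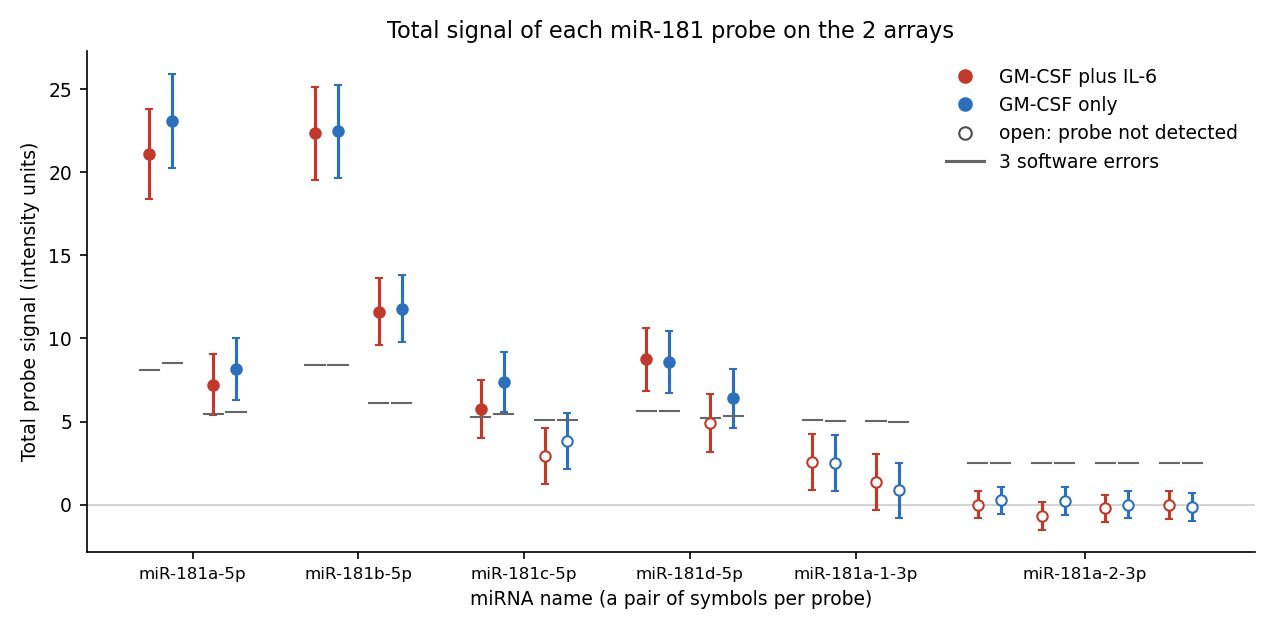
Total signal of each miR-181 probe (vertical axis, intensity units) on the array with GM-CSF plus IL-6 (red, left of each pair) and with GM-CSF only (blue, right), with the scanner software's error as bars, the detection limit of 3 errors as a grey line and undetected probes as open symbols. Of the 8 probes of the 5p arm 6 lie above the limit in both cultures, and the 6 probes of the 3p arm lie below it in both cultures.

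The level of miR-181d-5p, which differs from miR-181b-5p by a substitution and the final base, was 13.7 ± 2.56 with GM-CSF plus IL-6 and 14.97 ± 2.58 with GM-CSF only. Its relative log2 ratio was -0.07 ± 0.06. This value combined 2 probes that went opposite ways. The brighter probe had totals of 8.74 with GM-CSF plus IL-6 and 8.56 with GM-CSF only, a relative log2 ratio of 0.09 ± 0.07. The dimmer probe had totals of 4.93 with GM-CSF plus IL-6 and 6.40 with GM-CSF only, a relative log2 ratio of -0.31 ± 0.12. The sum therefore gives no direction on which the probes agree.

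In the authors' deposited table miR-181d-5p had the widest gap of the 4 members, with a log2 value of -3.15 with GM-CSF plus IL-6 and -2.37 with GM-CSF only. Relative to the median of all miRNAs in that table its log2 ratio was -0.71, against -0.07 from the probe sums. The values of that table equalled the log2 sum of the detected probes alone, minus 6.28 on each array, for all 308 miRNAs detected with GM-CSF plus IL-6 and all 301 detected with GM-CSF only, within 0.003. A probe counts as detected when its total exceeds 3 times its error. The dimmer probe of miR-181d-5p missed that limit with GM-CSF plus IL-6 (4.93 against a limit of 5.22) and passed it with GM-CSF only (6.40 against 5.35). The authors' value therefore rests on 1 probe with GM-CSF plus IL-6 (8.74) and on 2 probes with GM-CSF only (14.97). For miR-181a-5p, miR-181b-5p and miR-181c-5p the same probes were detected in both cultures, and the authors' deposited table gave relative log2 ratios of -0.08, 0.05 and -0.29.

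The deposited gene total of miR-181d-5p carried a further term. With GM-CSF plus IL-6 it was 14.5, which exceeds the detected probe by 5.76, the gene total of miR-181c-5p, the detected name before it in alphabetical order. With GM-CSF only the gene total was 14.97, equal to the sum of its probes. On gene totals the relative log2 ratio of miR-181d-5p was 0.04. The value of this miRNA thus ran from -0.71 to 0.091 depending on which probes entered it, the highest coming from the brighter probe alone.

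**Figure D2:**
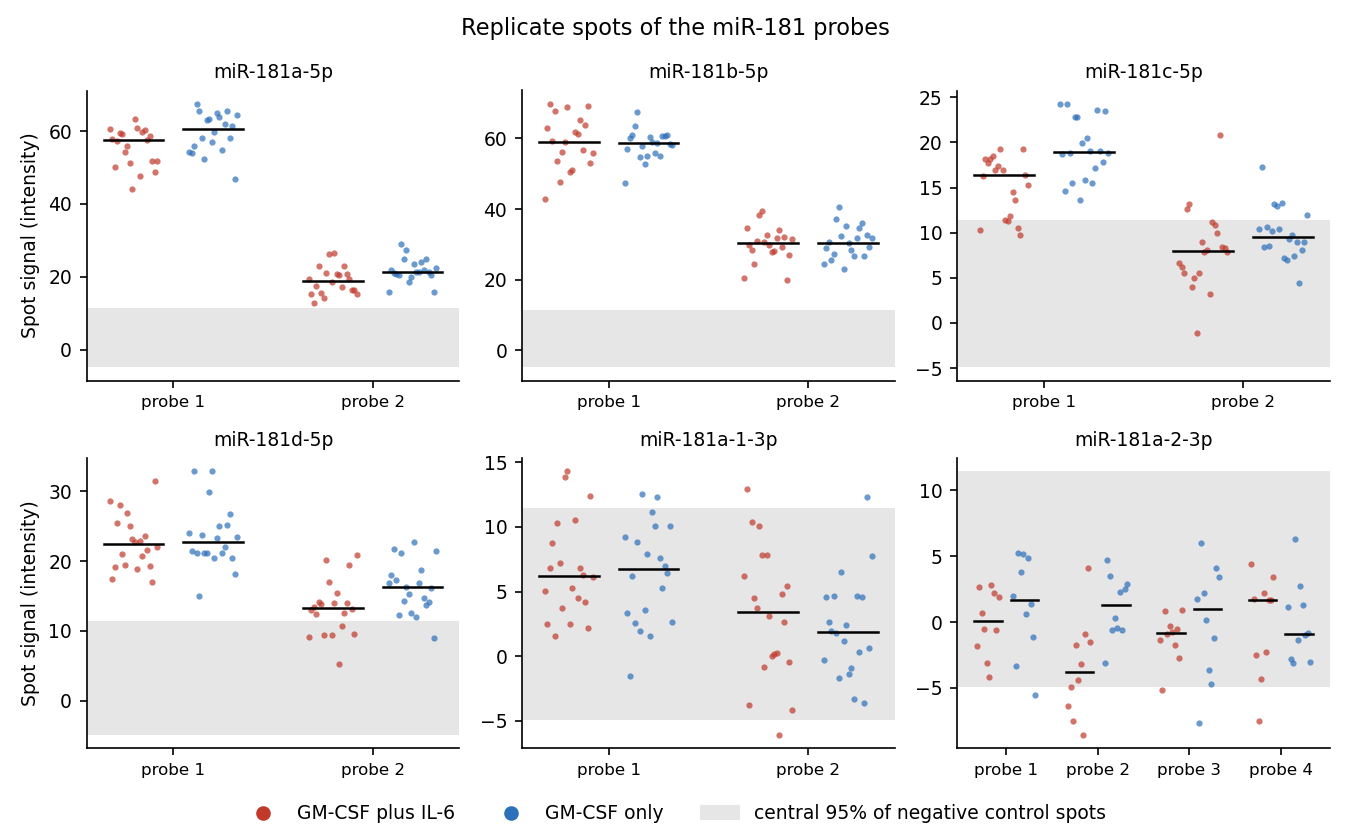
Background-subtracted signal of every replicate spot (vertical axis, intensity units, a separate scale per panel) for each probe of the 6 members, numbered from the brighter to the dimmer on the GM-CSF only array, with GM-CSF plus IL-6 in red on the left and GM-CSF only in blue on the right. Black lines are medians and the grey band spans the central 95% of negative control spots. The spots of miR-181a-5p and miR-181b-5p lie above the band, those of the dimmer probe of miR-181c-5p lie mostly inside it, and those of both 3p members lie largely inside it.

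Neither member of the 3p arm reached detection. The level of miR-181a-1-3p was 3.93 ± 2.38 with GM-CSF plus IL-6 and 3.34 ± 2.37 with GM-CSF only. Its brighter probe had totals of 2.56 with GM-CSF plus IL-6 and 2.48 with GM-CSF only, below limits of 5.06 and 5.05. Of its 40 spots, 57.5% with GM-CSF plus IL-6 and 50% with GM-CSF only were positive and significant against background by the software's flag, while among negative control spots 27.8% with GM-CSF plus IL-6 and 32.2% with GM-CSF only were. On either array 0 of its spots were well above background. The level of miR-181a-2-3p, summed over 4 probes, was -0.91 ± 1.66 with GM-CSF plus IL-6 and 0.34 ± 1.66 with GM-CSF only, and 1 of 40 spots with GM-CSF plus IL-6 and 6 of 40 with GM-CSF only were positive and significant. No ratio is given for either, since both cultures were below the limit. The remaining 4 miR-181 names on the array, all of the 3p arm, were also undetected in both cultures (miR-181b-1-3p, miR-181b-2-3p, miR-181c-3p and miR-181d-3p). Signals below the limit show only that these RNAs were not detectable with these probes. The signal of miR-181a-1-3p was not near 0, and whether that RNA was present at a low level was not tested.

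As a group, the median of the relative log2 ratios over the 4 detected members was -0.07, against 0 for all 292 miRNAs by construction, and 3 of the 4 lay below that median, as 50% of all miRNAs do. Without that subtraction, the group median was 0.05, against 0.12 for all. The log2 ratios without it were 0.04 for miR-181a-5p, 0.17 for miR-181b-5p, -0.18 for miR-181c-5p and 0.05 for miR-181d-5p under the scaling used here. Their signs turn with the scaling: with no scaling they were -0.14, -0.013, -0.37 and -0.13 in the same order of names, and scaling by the median also gave negative values for all 4. The group median without the subtraction ran from -0.25 to 0.092 over 17 alternatives. Of the 4 members, 3 lay inside the interquartile range of all miRNAs, and miR-181c-5p was the exception. The levels of the 4 were modest beside the median level of the 292 miRNAs, which was 39.1 with GM-CSF plus IL-6 and 38.5 with GM-CSF only, although signals of different probes do not give relative abundance.

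**Figure D3:**
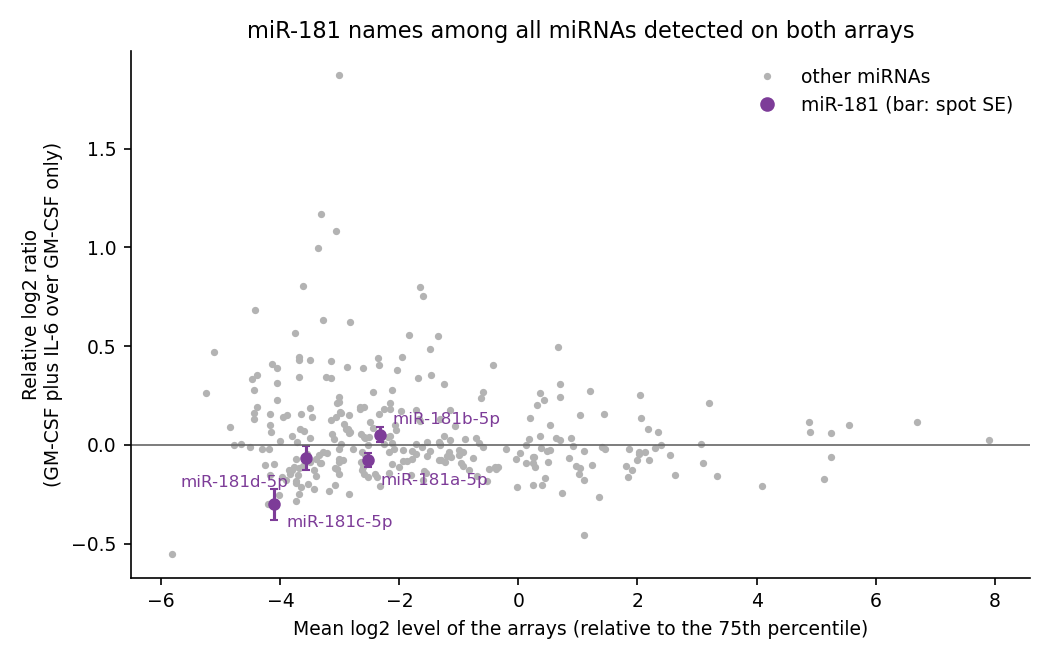
Relative log2 ratio between the cultures (vertical axis, positive where higher with GM-CSF plus IL-6) against the mean log2 level of the arrays, set to 0 at the 75th percentile of each (horizontal axis), for the 292 miRNAs detected in both cultures. The miR-181 names are in purple with the spot standard error as bars. They lie in the dimmer part of the plot, from -0.30 for miR-181c-5p to 0.05 for miR-181b-5p.

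The mouse miRNAs with the most similar pair of levels on the 2 arrays, by distance between scaled log2 levels, were miR-705 and miR-3085-3p for miR-181a-5p (distances 0.06 each) and miR-466a-5p and miR-17-3p for miR-181b-5p (0.08 and 0.09). They were miR-715_v16.0 and miR-7a-1-3p for miR-181c-5p (0.13 and 0.14) and miR-674-3p and miR-421-3p for miR-181d-5p (0.03 and 0.07). With 2 arrays this likeness describes signal alone.

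Among 16 miRNAs known from blood cells, 13 were detected in both cultures and 0 of these differed by 1.5-fold. Over all 292 miRNAs, 5.48% were at least 1.5-fold higher with GM-CSF plus IL-6 and 0% at least 1.5-fold lower. Of the 13, 11 lay below and 2 above the median of all miRNAs, where 50% lie on each side by construction. The list was chosen with earlier results of these data known. The relative log2 ratios of the 13 had a median of -0.13. The list called myeloid held 3 names, all detected in both cultures. Both arms of the miR-142 hairpin were among them, so these names are not 3 separate markers. How specific the miR-142 arms are to myeloid cells was not tested. The remaining name, miR-223-3p, is abundant in granulocytes. Its level was 6239 with GM-CSF plus IL-6 and 6807 with GM-CSF only. The miR-181 family is also a feature of lymphoid cells, and of 2 lymphoid marker names miR-150-5p was detected, at 54.2 with GM-CSF plus IL-6 and 62.6 with GM-CSF only. Its relative log2 ratio was -0.14, while miR-150-3p was undetected on both arrays. The summed level of both names was 55.1 with GM-CSF plus IL-6 and 63.6 with GM-CSF only, and their part in the miR-181 values was not tested. Of the erythroid names, 1 of 3 on the array was detected, miR-451 at 8.10 with GM-CSF plus IL-6 and 10.4 with GM-CSF only. Of 2 megakaryocyte and endothelial names 1 was detected, miR-126-3p at 11.04 with GM-CSF plus IL-6 and 12.8 with GM-CSF only, and of 5 stromal names 0 were. In RNA from whole cultures, fewer cells of a type and less miRNA per cell cannot be told apart.

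**Figure D4:**
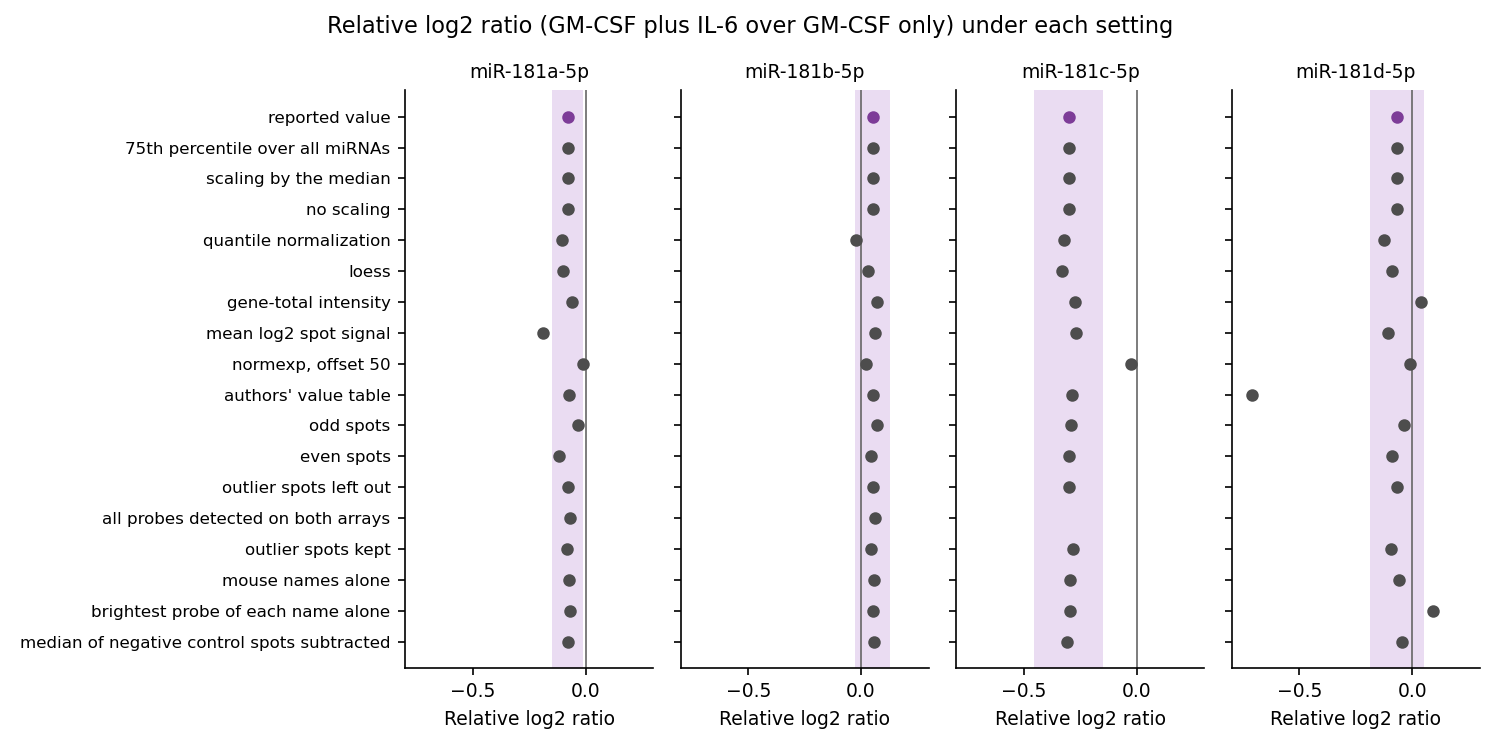
Relative log2 ratio (horizontal axis) of each detected miR-181 name under the reported setting (purple) and 17 alternatives (grey), with the 95% interval from spot errors around the reported value as a band. Settings that require every probe to be detected leave out miR-181c-5p and miR-181d-5p. The points of miR-181d-5p spread from -0.71 to 0.091, and those of miR-181b-5p from -0.02 to 0.07.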

How the data were processed

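The arrays, 1 per culture from 0.2 ug of RNA, were scanned and read with Agilent Feature Extraction 10.7.1.1. The deposited intensity values were made by the authors with that software, which subtracted the background and detrended the signal over the array with no scaling between arrays, per the file headers, and 0 spots were saturated. The median variation of replicate spots was 8.18% with GM-CSF plus IL-6 and 7.42% with GM-CSF only. A further table deposited by the authors gives log2 values, which sit at a floor for undetected names, with a column median of -9.60 on each array. Its scale and direction follow from the match to the scanner files, and the origin of its constants stays unknown.

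Of 1080 names, 1023 were mouse names, 308 were detected with GM-CSF plus IL-6, 301 with GM-CSF only and 292 on both. Deposited probe totals equal a constant per array times the probe's number of spots times the mean over its spots without outlier flags. They were summed per name. Both arrays share a slide design, and with 1 array per culture no batch effect could be tested. No test between cultures was run. A fold threshold of 2 took its place. The 6 members and all lists were chosen with earlier results of these data known. Named miRNAs were the members, for each detected member the 2 nearest names by scaled log2 level, names sharing a seed, and the blood and cell type lists. Of the listed names miR-486-5p is not analysed here. Alternatives changed the scaling, the level, the spots or the detection rule, with loess at a span of 0.7. Those keeping outlier spots, using mouse names alone, using the brightest probe of each name or subtracting control spots were chosen after seeing the data. Functions were tested on simulated data. Python 3.11.15, numpy 2.4.6, pandas 2.3.3, matplotlib 3.10.9, R 4.3.3 and limma 3.58.1 were used.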

Additional observations from a re-analysis of the deposited data

How the results depend on the processing

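Under 17 alternatives the number of miR-181 names at least 2-fold different stayed at 0. At a fold threshold of 1.5 it was 0 under the reported setting and under every alternative but the authors' value table, where it was 1 (miR-181d-5p). The median relative log2 ratio of the detected names was below 0 in all 17, between -0.18 and -0.003, as was that of miR-181a-5p, between -0.19 and -0.01. For miR-181c-5p it was below 0 in the 16 alternatives that kept it, for miR-181b-5p above 0 in 16 of 17, and for miR-181d-5p below 0 in 14 of 16. Quantile normalization moved miR-181b-5p from 0.05 ± 0.04 to -0.02, more than its standard error but inside the 95% interval from spot errors. Odd spots for miR-181a-5p and gene totals for miR-181d-5p, among others, did likewise. Values moved outside that interval in 4 settings. Mean log2 spot signals gave -0.19 for miR-181a-5p and -0.15 for the median, and the cause was not tested. Normexp with an offset of 50, which shrinks dim ratios by construction, gave -0.026 for miR-181c-5p. The authors' value table, which sums detected probes alone, gave -0.71 for miR-181d-5p and -0.18 for the median, and the brightest probe alone gave 0.091 for miR-181d-5p. Requiring every probe to be detected left 2 of the 4 names. Without the subtraction of the median of all, the log2 ratio was below 0 in 10 of 17 alternatives for miR-181a-5p, 5 of 17 for miR-181b-5p, 15 of 16 for miR-181c-5p and 7 of 16 for miR-181d-5p, so these signs depend on the scaling. Scalings that shift every miRNA alike, and leaving out outlier spots, repeat the reported relative values by construction. No paired analysis was possible because each culture had 1 array, and no replicate could be left out. Signals near background limit what can be said of miR-181c-5p, the dimmer probe of miR-181d-5p and the 3p arm.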

Other observations

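The sum over detected probes alone in the authors' deposited table also affected other miRNAs. Of the 292 miRNAs detected in both cultures, 17 had different probes detected on the 2 arrays, miR-181d-5p among them. For these 17 the relative log2 ratio from the authors' deposited table departed from that of the probe sums by a median of 0.53 and by at least 0.5 in 9. For the other 275 the median departure was 0.003, the largest was 0.32 and 0 reached 0.5. The departure of miR-181d-5p was -0.64.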
